A study of Mus musculus with 12 samples.

Results

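Cold-sensing neurons and C low-threshold mechanoreceptors (C-LTMRs) were followed through 9 listed marker genes, out of 55416 gene identifiers counted, in trigeminal ganglia of mice with induced deletion of Prdm12 and of controls. The markers were Foxp2, Rxfp1, Cdh8, Slc17a8, Tafa4, Zfp521, Th, Gpr26 and Cacng5. They were taken by name from a list that was chosen with earlier results of these data known. All 9 matched 1 identifier each. The sensory neurons that supply the face have their cell bodies in this ganglion. Cold-sensing neurons detect cooling chiefly through the ion channel TRPM8. C-LTMRs are unmyelinated afferents that respond to gentle stroking of hairy skin, and are known in mouse for tyrosine hydroxylase, the vesicular glutamate transporter VGLUT3 and the secreted protein TAFA4. PRDM12 is a transcriptional regulator required in development for the neurons that sense pain.

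Polyadenylated RNA of whole ganglia was sequenced from 6 inducible knockouts (iKO) and 6 controls, adult mice of strain C57Bl6, 1 month after injection. The 6 iKO animals were Rosa26Cre ERT2; Fl/Fl, with both Prdm12 alleles floxed, and received tamoxifen. Controls 1 to 4 also received tamoxifen. Control 1 was Rosa26Cre ERT2; Fl/+, controls 2 and 3 were +/+; Fl/+ and control 4 was Rosa26Cre ERT2; +/+. Controls 5 and 6 were Rosa26Cre ERT2; Fl/Fl like the iKO animals, but were injected with corn oil. Replicates 1 to 4 therefore compared genotypes under tamoxifen, and replicates 5 and 6 compared injections within 1 genotype. Females were iKO 1 to 3 and controls 1 and 2, and the other animals were male. The Rosa26 locus is active in most cell types, so the recombinase was not restricted to neurons.

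Libraries held 13207526 to 24178970 counts, and a count of 0 allows up to 0.124 to 0.227 CPM (counts scaled to the library's total), from 3 counts, for counting error only. Levels below are CPM after TMM scaling. Prdm12 itself (ENSMUSG00000079466) averaged 16.8 ± 1.97 CPM in iKO and 106 ± 28.4 CPM in control ganglia (SD, n = 6 each). It fell by 2.64 ± 0.185 on the log2 scale (SE), with an adjusted p of 2.7e-05 in edgeR's quasi-likelihood test. The highest iKO library had 19.2 CPM and the lowest control, control 6, had 56.9 CPM. Of the 16637 genes tested, 63 passed the threshold of 0.05 after Benjamini-Hochberg adjustment, which is 0.379%.

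None of the markers passed that edgeR test. Rxfp1 had too few counts to enter it. Of the 8 tested, 0 passed at an adjusted p under 0.05 with edgeR and with limma-voom, and DESeq2 called 1, Foxp2. Among all 16637 genes DESeq2 called 332, against 63 with edgeR. For the 8 markers the edgeR results follow. Their log2 fold changes, iKO over control, ran from -0.41 for Foxp2 to 0.28 for Tafa4, with a median of -0.11, against 0.00 over all genes tested. At an unadjusted p under 0.05, 3 of the 8 were lower, against 6% of all genes, and 1 was higher, against 4.9%. The groups of 6 overlapped for every marker, while 1.2% of all genes had groups that did not overlap. RNA of whole ganglia cannot tell fewer cells of a type from less RNA per cell.

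**Figure D1:**
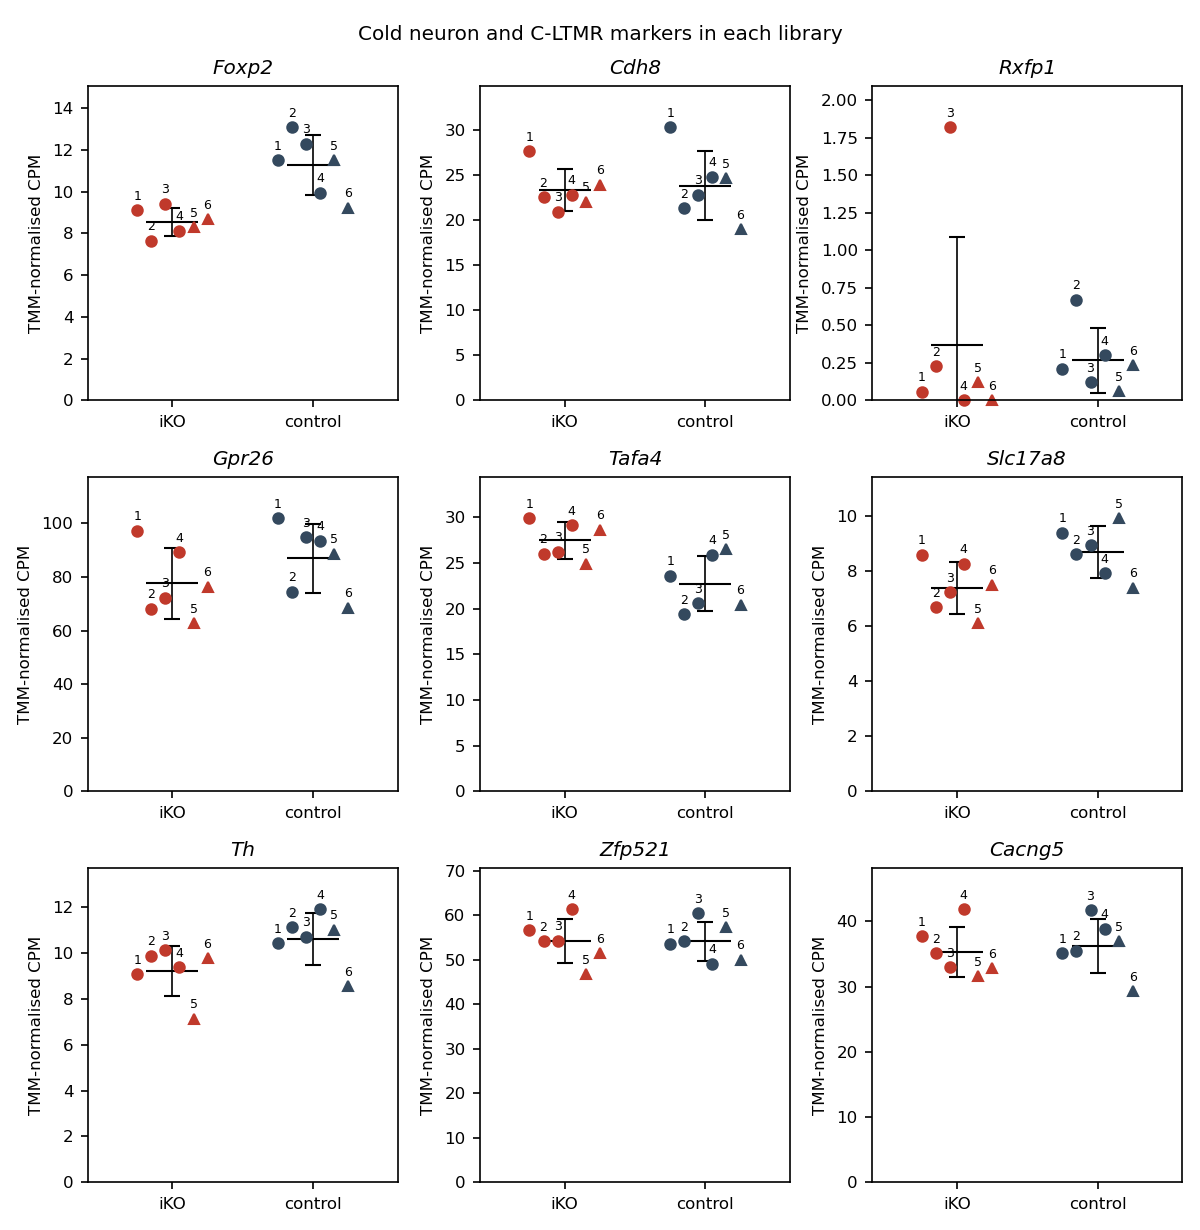
TMM-normalised CPM of the 9 markers in each library, iKO left of control, with the mean and SD of 6 libraries per group, numbered by replicate, with triangles for replicates 5 and 6. Foxp2 lay lower in iKO ganglia and Tafa4 higher, at 75.8% and 121% of the control mean, neither past the adjusted threshold in edgeR, while Zfp521 averaged 54.1 CPM in both groups.

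Among the transcriptional regulators, Foxp2 (ENSMUSG00000029563), a forkhead transcription factor, came nearest to the threshold. It ran from 7.66 to 9.42 CPM in iKO ganglia with a median of 8.49 CPM, against 9.24 to 13.1 CPM in control ganglia with a median of 11.5 CPM. Only control 6, at 9.24 CPM, fell within the iKO range. The means were 8.55 ± 0.649 CPM in iKO and 11.3 ± 1.45 CPM in control ganglia (SD, n = 6 each). The log2 fold change was -0.41 (95% interval -0.61 to -0.22), with an adjusted p of 0.0823 in edgeR. Without control 6 the log2 fold change was -0.46 with an adjusted p of 0.0375, and DESeq2 on all 12 libraries gave an adjusted p of 0.0118. Without any other single library Foxp2 did not pass in edgeR.

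Control 6 had the lowest Prdm12 of the controls, at 56.9 CPM against 88.2 to 133 CPM in the others. It also had their lowest value of the cold channel gene Trpm8, at 105 CPM, within the iKO range of 65.8 to 136 CPM. The part of either in the Foxp2 values was not tested. Control 6 stood apart in markers of other cells as well. Summed CPM of 8 oligodendrocyte and astrocyte markers ran from 107 to 622 in iKO and from 95.4 to 1804 in control ganglia, highest in control 6. All 8 had negative fold changes and 0 passed in edgeR, with 3 at an unadjusted p under 0.05. DESeq2 called 1 of them, Gjb6, a gap junction gene, with an adjusted p of 0.0163. In edgeR Gjb6 had a log2 fold change of -0.91 and Aldh1l1 one of -0.39. Summed CPM of 6 satellite glia markers ran from 1554 to 2438 in iKO and from 1327 to 4334 in control ganglia, again highest in control 6. Of these 0 passed in edgeR or DESeq2, with 1 at an unadjusted p under 0.05, and Atp1b2 was at -0.60 and Kcnj10 at -0.41. In control 6, 6 of the 8 tested markers of cold neurons and C-LTMRs had the lowest value of the controls. In iKO 5, 6 of the 8 had the lowest value of the iKO ganglia. The share of all genes lowest in these libraries was not computed. Control 6 and iKO 5 also had the lowest summed CPM of 12 general sensory neuron genes in their groups. That sum was 13020 in control 6 and 13586 in iKO 5. Its part in the marker values was not tested.

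Some fibroblast, meningeal and myelinating Schwann cell markers passed between the groups in edgeR, while skeletal muscle and brain neuron markers did not. Among all 16637 genes tested, edgeR called 63 and DESeq2 332. Of 9 fibroblast and meningeal markers, 3 passed in edgeR and were lower in iKO (Slc22a8, Slc22a6 and Slc13a4), and DESeq2 called 6, all lower. Their summed CPM was 1151 to 2009 in iKO and 1721 to 3030 in control ganglia. Of 6 myelinating Schwann cell markers, Pmp22 passed in edgeR and was higher, and DESeq2 called 3, all higher, with sums of 8333 to 10618 CPM in iKO and 7038 to 12092 CPM in control ganglia. Over 21 alternatives these edgeR calls were lost in 16 for Slc22a6, 14 for Slc22a8, 6 for Slc13a4 and 5 for Pmp22. Of 6 skeletal muscle markers 0 passed in edgeR or DESeq2, with 3 at an unadjusted p under 0.05, led by Myh4 at 3.34 and Neb at 0.63. Their sums were 58.4 to 688 CPM in iKO and 53.3 to 202 CPM in control ganglia. The 688 CPM was that of iKO 5, with 203 CPM or less in the other iKO ganglia. Without iKO 5 the log2 fold change of Myh4 was 1.64. Of 6 brain neuron markers tested 0 passed in edgeR, with 1 at an unadjusted p under 0.05. That 1 was Camk2a, a neuronal kinase subunit, with 87.3 to 114 CPM in iKO and 116 to 151 CPM in control ganglia, which did not overlap. Camk2a had a log2 fold change of -0.32, with an adjusted p of 0.13 in edgeR and 0.0145 in DESeq2, and Cbln1 was at -0.33. Summed CPM of 9 brain neuron markers was 256 to 324 in iKO and 289 to 371 in control ganglia. Most of that sum came from 2 genes. Slc17a7 averaged 183 CPM in iKO and 184 CPM in control ganglia, and Camk2a 103 and 129 CPM. The sum therefore mainly reflected these 2 genes, and only 6 of the 9 had enough counts to be tested. RNA of whole ganglia cannot tell whether Slc17a7 and Camk2a came from brain neurons or from the neurons of the ganglion. None of the markers in these lists was at 0 in all libraries, and their part in the values of the cold neuron and C-LTMR markers was not tested.

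Zfp521 (ENSMUSG00000024420), a zinc finger protein, ran from 46.8 to 61.4 CPM in iKO and from 49.1 to 60.5 CPM in control ganglia. The groups overlapped almost completely. Its log2 fold change was 0.00, with a 95% interval of -0.16 to 0.15 and an adjusted p of 0.992 in edgeR. A change of more than 0.16 on the log2 scale lies outside that interval.

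Among the receptors, Gpr26 (ENSMUSG00000040125), an orphan G protein-coupled receptor, was the marker with the most counts. It ran from 62.7 to 97.3 CPM in iKO and from 68.5 to 102 CPM in control ganglia. Its log2 fold change was -0.17 (95% interval -0.44 to 0.09), with an adjusted p of 0.66 in edgeR. Trpm8, the cold-gated channel that defines cold-sensing neurons, is no listed marker. It averaged 99.3 ± 28.4 CPM in iKO and 159 ± 32.8 CPM in control ganglia (SD, n = 6 each). Its log2 fold change was -0.68 (95% interval -1.10 to -0.26), with an adjusted p of 0.173 in edgeR.

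Rxfp1 (ENSMUSG00000034009), the relaxin receptor, was near or below the counting floor in nearly all libraries. The raw counts were 1, 3, 43, 0, 3 and 0 in iKO 1 to 6, against 3, 13, 2, 5, 1 and 5 in controls 1 to 6. That is 1.82 CPM in iKO 3, with the other iKO ganglia at 0.228 CPM or less, against 0.671 CPM in control 2, with the other controls at 0.300 CPM or less. The group mean in iKO ganglia therefore rested on iKO 3, and no fold is given. The same 2 libraries had the highest summed CPM of 6 pituitary hormone markers in their groups, 2805 in iKO 3 and 688 in control 2. That sum was 8.9 to 347 CPM in the other iKO ganglia and 12.4 to 187 CPM in the other controls. Of the 6 pituitary markers, Lhb was at 0 in all libraries, and 0 of the 5 tested passed in edgeR or DESeq2, with Cga at 0.99 and Pomc at 0.74. Their part in the Rxfp1 values was not tested.

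**Figure D2:**
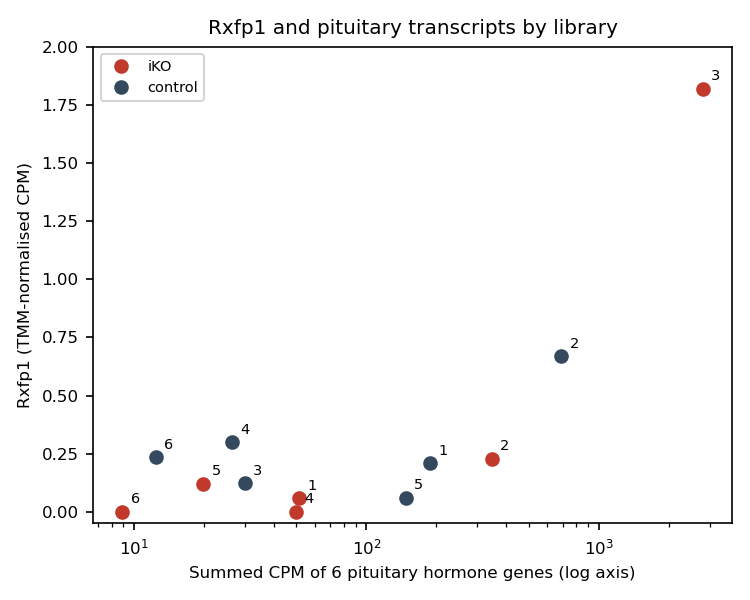
Rxfp1 in TMM-normalised CPM against the summed CPM of 6 pituitary hormone markers on a log axis, 1 point per library, numbered by replicate within iKO and control. The points at 1.82 CPM (iKO 3) and 0.671 CPM (control 2) had the highest Rxfp1 values and the highest pituitary sums of their groups.

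Cdh8 (ENSMUSG00000036510), a type II cadherin that mediates adhesion between cells, ran from 20.9 to 27.6 CPM in iKO and from 19.0 to 30.3 CPM in control ganglia. The iKO range lay inside the control range. Its log2 fold change was -0.05 (95% interval -0.27 to 0.17), with an adjusted p of 0.905 in edgeR. Cacng5 (ENSMUSG00000040373), a transmembrane regulator of AMPA-type glutamate receptors, ran from 31.6 to 41.9 CPM in iKO and from 29.3 to 41.7 CPM in control ganglia. Its log2 fold change was -0.03 (95% interval -0.23 to 0.16), with an adjusted p of 0.931 in edgeR.

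The C-LTMR genes Tafa4, Slc17a8 and Th did not share a direction. Tafa4 (ENSMUSG00000046500), a secreted chemokine-like protein, ran from 24.9 to 29.9 CPM in iKO ganglia with a median of 27.4 CPM, against 19.4 to 26.5 CPM in control ganglia with a median of 22.1 CPM. The groups overlapped through iKO 2, 3 and 5 and controls 4 and 5. The log2 fold change was 0.28 (95% interval 0.09 to 0.47), with an unadjusted p of 0.00691 and an adjusted p of 0.23 in edgeR. Of the 8 tested markers, 7 had a negative point estimate and Tafa4 a positive one.

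Slc17a8 (ENSMUSG00000019935) encodes VGLUT3, which loads glutamate into synaptic vesicles. It ran from 6.11 to 8.59 CPM in iKO ganglia with a median of 7.37 CPM, against 7.40 to 9.93 CPM in control ganglia with a median of 8.79 CPM. The log2 fold change was -0.24 (95% interval -0.48 to -0.01), with an adjusted p of 0.436 in edgeR. Th (ENSMUSG00000000214), the rate-limiting enzyme of catecholamine synthesis, ran from 7.12 to 10.1 CPM in iKO ganglia, lowest in iKO 5. Control ganglia had 8.53 to 11.9 CPM, lowest in control 6. The log2 fold change of Th was -0.22 (95% interval -0.45 to 0.00), with an adjusted p of 0.458 in edgeR. Both intervals reach to within 0.01 of 0.

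**Figure D3:**
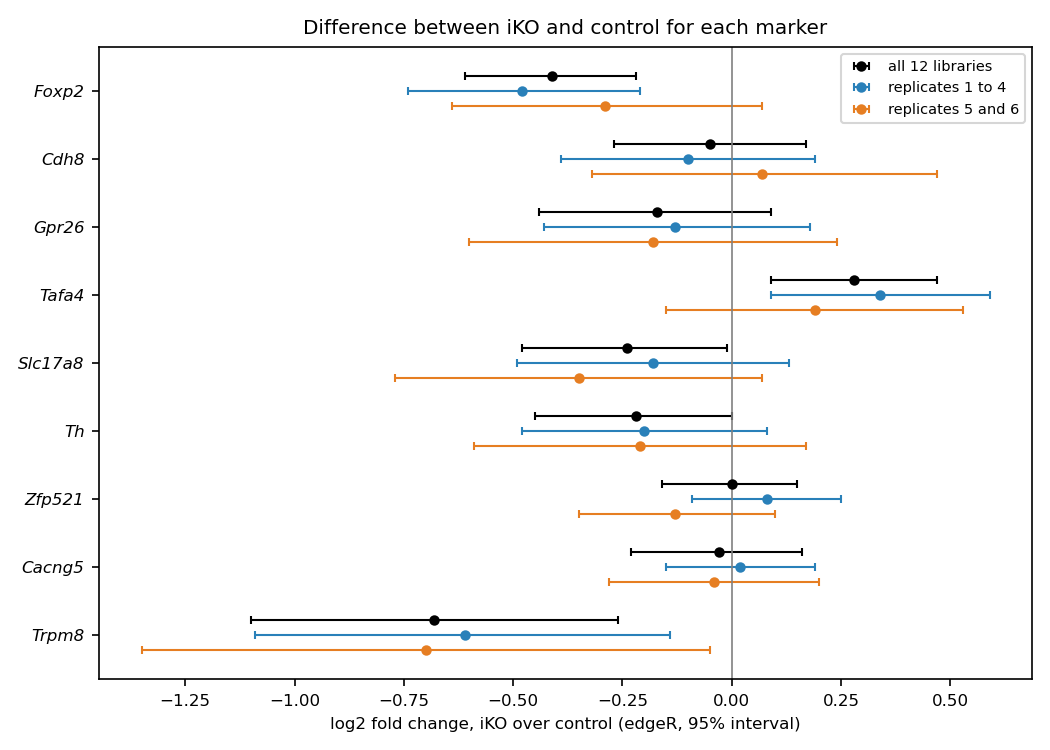
Log2 fold change, iKO over control, of the 8 tested markers and Trpm8 with 95% intervals, over all 12 libraries (black), replicates 1 to 4 (blue) and replicates 5 and 6 (orange). The marker estimates over all 12 libraries lay between -0.41 (Foxp2) and 0.28 (Tafa4), and no marker passed the adjusted threshold in edgeR, while DESeq2 called Foxp2.

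Ordered by CPM per kb of exon, Cacng5 was highest at 9.22 ± 1.01 in iKO and 9.46 ± 1.09 in control ganglia (SD, n = 6 each). Zfp521 followed at 7.70 ± 0.699 in iKO and 7.70 ± 0.615 in control ganglia, and Gpr26 at 6.71 ± 1.14 in iKO and 7.52 ± 1.12 in control ganglia. The means of Zfp521 and Gpr26 lay within 1 SD of each in control ganglia, and in iKO ganglia within 1 SD of Gpr26 only. Tafa4 had 4.82 ± 0.355 CPM per kb in iKO and 3.99 ± 0.535 in control ganglia. Th had 3.89 ± 0.459 CPM per kb in iKO and 4.49 ± 0.477 in control ganglia. The order of Tafa4 and Th thus differed between the groups, and in control ganglia their means lay within 1 SD of Tafa4 of each other. Cdh8 had 3.01 CPM per kb in iKO and 3.08 in control ganglia, Slc17a8 1.57 in iKO and 1.84 in control ganglia, and Foxp2 0.523 in iKO and 0.690 in control ganglia. Trpm8 stood above all of them, at 21.0 CPM per kb in iKO and 33.6 in control ganglia.

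In replicates 1 to 4, where genotype differed and all animals had tamoxifen, 0 of 8 markers passed in edgeR, against 0.114% of all genes. At an unadjusted p under 0.05 there were 2, Foxp2 and Tafa4, against 7.93% of all genes. Foxp2 had 7.66 to 9.42 CPM in iKO and 9.96 to 13.1 CPM in control ganglia, and Th had 9.05 to 10.1 CPM in iKO and 10.4 to 11.9 CPM in control ganglia. These 2 markers did not overlap and were lower in iKO, as were 1.82% of all genes. Tafa4 had 26.0 to 29.9 CPM in iKO and 19.4 to 25.9 CPM in control ganglia, not overlapping and higher in iKO, as were 2.08% of all genes. The log2 fold changes were -0.48 for Foxp2, with an adjusted p of 0.246 in edgeR, and 0.34 for Tafa4, with an adjusted p of 0.445.

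In replicates 5 and 6, where all 4 animals were male and only the injection differed, 0 of 8 passed in edgeR, against 0.00601% of all genes. At an unadjusted p under 0.05 there were also 0, against 7.87% of all genes. The log2 fold change of Foxp2 was -0.29 (95% interval -0.64 to 0.07) and that of Tafa4 was 0.19 (95% interval -0.15 to 0.53). Foxp2 had 8.29 and 8.69 CPM in iKO against 11.5 and 9.24 CPM in control ganglia, the 1 marker that did not overlap and was lower, as were 20.1% of all genes.

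DESeq2 and limma-voom called 0 markers in either replicate set. The 2 sets were not shown to differ for any marker. The difference of their log2 fold changes, replicates 1 to 4 minus replicates 5 and 6, lay between -0.19 and 0.20, with all adjusted p at 1.0 in edgeR. Over all genes 0% passed that test, 3.41% had an unadjusted p under 0.05, and DESeq2 called 5 genes. The effect in males minus that in females lay between -0.11 and 0.13 with all adjusted p at 1.0. Over all genes 0% passed there and 1.91% had an unadjusted p under 0.05, and DESeq2 also called 0. Between males and females over both groups, marker differences lay between -0.13 and 0.06, with a lowest adjusted p of 0.624 in edgeR. For all genes, 0.108% passed that comparison and 10.2% had an unadjusted p under 0.05, with 0 of the 8 markers at that level.

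The markers tended to vary in the same direction across libraries. After centring log2(CPM + 0.5) within each group, 27 of the 28 pairs of tested markers had a positive Pearson r over 12 libraries, with a median of 0.46. The range ran from -0.14 for Foxp2 with Tafa4 to 0.81 for Slc17a8 with Gpr26. Over all genes tested, the median r with a single marker was -0.01 to 0.03, and the 95th percentile was 0.49 for Foxp2 up to 0.71 for Cacng5. These values share library, scaling and tissue composition, and are given as a description. Of all 16637 genes tested, the one most like Gpr26 was Trpm8, with r = 0.95, at 0.98 within iKO and 0.92 within control libraries. Within iKO libraries Tafa4 and Slc17a8 reached 0.98 and 0.97 with Trpm8, against 0.69 and 0.53 within control libraries. Zfp521 (0.80 against 0.17) and Cacng5 (0.82 against 0.77) were also higher within iKO libraries. The reverse held for Th (0.39 against 0.83), Cdh8 (0.73 against 0.84) and Foxp2 (0.17 against 0.27). Each r within a group rests on 6 libraries, and the differences were not tested. Over all 12 libraries, the r with Trpm8 was 0.79 for Cacng5 and Slc17a8. It was 0.75 for Tafa4, 0.74 for Cdh8, 0.57 for Th, 0.55 for Zfp521 and 0.21 for Foxp2. The closest genes to the others were Gnal to Cacng5 (r = 0.97), Clrn2 to Cdh8 (r = 0.91), P2rx6 to Tafa4 (r = 0.91), Myo1e to Zfp521 (r = 0.91), Slc35f3 to Slc17a8 (r = 0.88), Rspo2 to Th (r = 0.87) and Rps10 to Foxp2 (r = 0.86).

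Ratios of 2 genes within a library were chosen after the values of 36 pairs were seen, and have no test. Of the 36 pairs, 8 did not overlap between the groups. Tafa4 was in 6 of these 8, Trpm8 in 2 and Foxp2 in 2, and 2 of the 8 are given here. Pairs with Tafa4 share that gene, so they are not separate results. The share of non-overlapping ratios among all pairs of genes was not computed, so the count has no background. The ratio of Trpm8 to Gpr26 CPM was 1.05 to 1.45 in iKO ganglia and 1.54 to 2.10 in control ganglia, with no overlap. Among all other genes tested, 0.0842% had a ratio to Gpr26 that did not overlap and was lower in iKO. The 2 genes varied together from library to library within a group, while their ratio did not overlap between the groups. The ratio of Tafa4 to Slc17a8 CPM was 3.49 to 4.08 in iKO ganglia and 2.25 to 3.27 in control ganglia, and 1.86% of all other genes had a ratio to Slc17a8 that did not overlap and was higher in iKO.

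**Figure D4:**
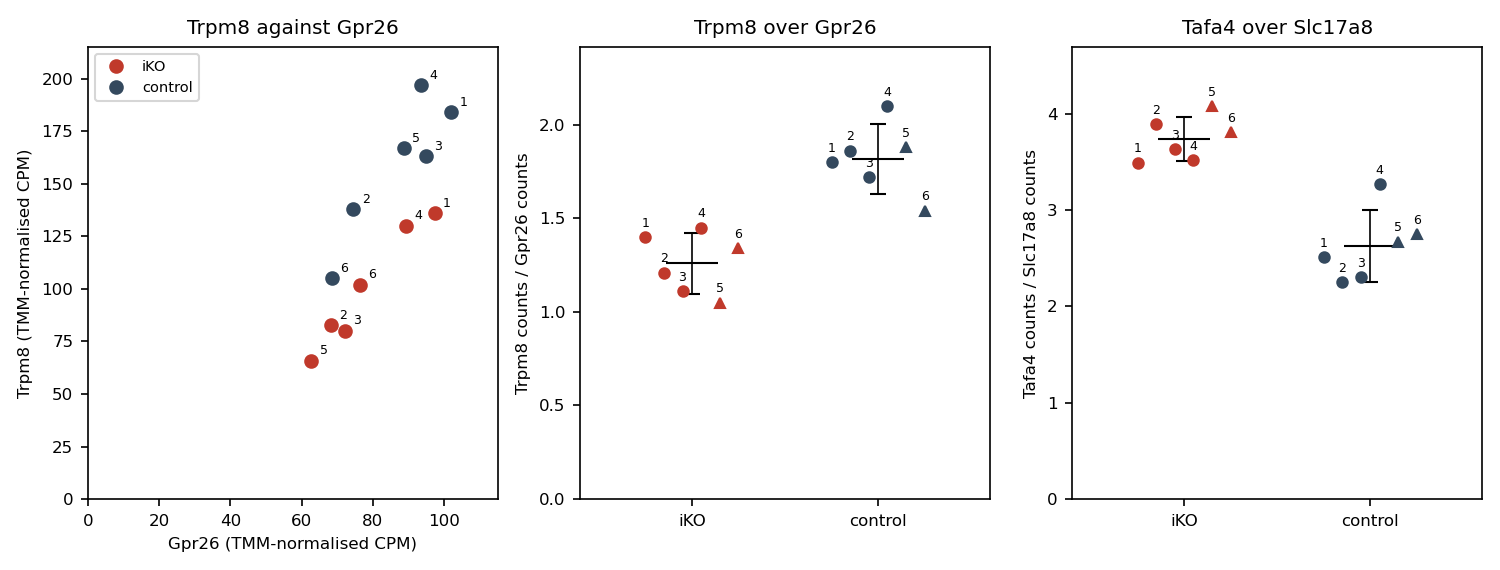
Trpm8 against Gpr26 in TMM-normalised CPM (left), and the ratios of Trpm8 to Gpr26 and of Tafa4 to Slc17a8 in each library with the mean and SD of 6 libraries, iKO left of control, triangles for replicates 5 and 6. The Trpm8 ratio was 1.05 to 1.45 in iKO and 1.54 to 2.10 in control ganglia, and the Tafa4 ratio was 3.49 to 4.08 in iKO and 2.25 to 3.27 in control ganglia.

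Of 13 other cold-neuron and C-LTMR genes, 0 passed in edgeR or DESeq2, with 2 at an unadjusted p under 0.05, and the median log2 fold change was -0.04, against 0.00 over all genes. The 2 smallest p belonged to Trpm8 and to Kcna1, a voltage-gated potassium channel, at 0.15 with an adjusted p of 0.389 in edgeR. Of 12 general sensory neuron genes, 0 passed in edgeR, with 2 at an unadjusted p under 0.05 and a median of 0.00. These 2 were the RNA-binding protein genes Elavl3 at -0.24 and Rbfox3 at -0.23, and DESeq2 called Elavl3 with an adjusted p of 0.0418. Their summed CPM was 13586 to 16456 in iKO and 13020 to 16274 in control ganglia.

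In the TAFA family of secreted proteins, 4 genes besides Tafa4 were tested and 0 passed in edgeR. Tafa3 came nearest, with 37.7 to 45.4 CPM in iKO and 31.1 to 36.4 CPM in control ganglia, which did not overlap. Its log2 fold change was 0.32 (95% interval 0.18 to 0.45), with an adjusted p of 0.0511 in edgeR and 0.000998 in DESeq2. Tafa3 was called in 6 of 21 alternatives, DESeq2 among them. In edgeR it passed with DESeq2 size factors (adjusted p = 0.0492), no filter (0.0282) and a stricter filter (0.0448). It also passed in edgeR with no sex covariate (0.0311) and without control 4 (0.0441). Without any other single library it did not pass. With tamoxifen-injected animals only, Tafa3 did not pass in edgeR (adjusted p = 0.214), nor with replicate number as a block (0.103). In limma-voom its adjusted p was 0.0539. Tafa2 was at 0.17 and Tafa1 at 0.16, with adjusted p of 0.288 and 0.313 in edgeR, and Tafa5 at -0.09. Of the 5 family members, Tafa4 included, 4 were higher at an unadjusted p under 0.05, against 4.9% of all genes, and Tafa1 and Tafa5 are named after their values were seen.

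Around Th, 5 of 9 genes of catecholamine synthesis, storage and uptake were tested and 0 passed in edgeR or DESeq2, with Ddc at -0.50 (adjusted p = 0.516 in edgeR). Summed CPM of 8 sympathetic neuron markers was 0.455 to 3.60 in iKO and 0.803 to 2.10 in control ganglia, and 0 of the 8 had enough counts to be tested. Around Slc17a8, the other vesicular glutamate transporters Slc17a6 and Slc17a7 had log2 fold changes of -0.02 and 0.01. Around Rxfp1, 1 of 7 relaxin receptor and ligand genes was tested, Rxfp3, at -0.40 with an adjusted p of 0.589 in edgeR.

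Around Cacng5, 5 of 7 related gamma subunit genes were tested and 0 passed in edgeR or DESeq2, all with negative point estimates and a median of -0.14. The 2 with the smallest p were Cacng3 at -0.37 and Cacng2 at -0.15. Around Cdh8, 11 other type II cadherins had a median of 0.11 and 0 passed in edgeR or DESeq2, led by Cdh18 at 0.20 (adjusted p = 0.225 in edgeR) and Cdh22 at -0.34. Around Foxp2, Foxp4 was at -0.31 (adjusted p = 0.338 in edgeR) and Foxp1 at -0.14. Around Zfp521, 0 of 5 partner and related genes passed in edgeR or DESeq2, with the transcription factor genes Ebf2 at -0.44 (adjusted p = 0.178 in edgeR) and Ebf1 at -0.03.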

How the data were processed

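RNA of trigeminal ganglia was sequenced in 12 mice. The deposited values are raw read counts per gene, 1 file per library, not normalized by the authors. Per the labels' protocols, the kit for polyadenylated RNA was not stranded. STAR 2.7.8a, featureCounts 2.0.1 and bcl2fastq 2.20.0.422 are named in the submitters' processing notes, with the build GRCm39. For the annotation release and the counting options, the sources used here give nothing. Without strand, reads of overlapping antisense genes cannot be told apart.

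Symbols came from reference tables for GRCm38, so no coordinates are given. They named 52083 of 55416 identifiers. The other 3333 held 0.274% of counts. CPM per kb used exon lengths of that annotation, where Tafa4 is listed under an older symbol.

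Tests of the counts used edgeR 4.0.16 (R 4.3.3): filterByExpr by group, TMM (factors 0.969 to 1.02), quasi-likelihood fit with sex as covariate, and Benjamini-Hochberg adjustment over 16637 genes at 0.05. Replicate sets were contrasts in 1 fit over all 12 libraries, and the sex difference an interaction. DESeq2 1.42.0 and limma 3.58.1 (voom) were alternatives, with other filters, scaling, covariates and samples, and each library left out in turn. In 1 simulation of the 12-library comparison over 16637 genes, the test recovered 76% of genes set to 2-fold and 71% of genes set to 1.5-fold changes and made 6 false calls. Recovery of 1.5-fold changes was 54% in replicates 1 to 4, 19% in replicates 5 and 6, 9% for the difference between the sets, 10% for the sex difference and 57% for males against females. Chi-square per degree of freedom was 7.63 to 29.4 over the 30 pairs of libraries within a group, so none was counted as a duplicate. The labels do not say whether replicates differ beyond being separate samples, so p-values measure the spread between these samples.

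The markers and gene lists were chosen with earlier results of these data known. All 9 markers, Prdm12 and Trpm8 are named. Of each related list, genes past the threshold, up to 4, or the 2 with the smallest p are named, except 1 gene that is not reported here, and for each marker the 1 gene with the highest r. Tafa1, Tafa5 and the ratios were chosen after their values were seen.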

Additional observations from a re-analysis of the deposited data

Results flagged for a closer look

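A gap between 1 library and the rest of its group was examined in 22 groups of 6 libraries, over 11 genes, by Dixon's ratio at its 95% critical value. Chance passes it in about 1 of 20 groups, and 2 passed here. Rxfp1 was 1.82 CPM in iKO 3, against 0 to 0.228 CPM in the other iKO ganglia. iKO 3 also had the highest summed pituitary marker CPM of all libraries, 2805. Th was 7.12 CPM in iKO 5, against 9.05 to 10.1 CPM in the other iKO ganglia. iKO 5 also had the highest summed skeletal muscle marker CPM, 688. The part of these other tissues in the values was not tested.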

How the results depend on the processing

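Over all 12 libraries, 63 genes passed, against 138 with no filter on low counts, 332 with DESeq2, 28 with tamoxifen-injected animals only, 20 without control 2 and iKO 3 (an alternative chosen after seeing the data) and 23 to 88 without 1 library. With the replicate block, 15 passed. The labels do not say what a shared replicate number means, and the numbers were not used as pairs in the main test. Same-numbered deviations correlated between -0.40 and 0.33. This cannot decide whether samples were paired, because other differences between libraries enter these values too. Under the block, Foxp2 was at -0.39 with an adjusted p of 0.287. Markers passing were 0, against 1 with DESeq2 (Foxp2) and 0 to 1 without 1 library. In replicates 1 to 4, 19 genes passed, against 621 with no filter, 137 with DESeq2, 3 with the replicate block, 12 with the set alone and 2 to 18 without 1 library. With no filter, Tafa4 passed there (adjusted p = 0.0491 in edgeR). In replicates 5 and 6, 1 gene passed, against 2 with DESeq2 size factors, 1014 with no filter, 2 with the stricter filter, 70 with DESeq2, 2 with no sex covariate, 0 with the set alone and 1 to 26 without 1 library. The set difference gave 0 genes, against 578 with no filter, 5 with DESeq2 and 0 to 15 without 1 library. The comparison of the sexes gave 18 genes, against 33 with no filter, 50 with DESeq2 and 11 to 15 without 1 library. Foxp2 stayed between -0.46 and -0.37 and Tafa4 between 0.23 and 0.33 without 1 library. Trpm8 passed with no filter (adjusted p = 0.0355 in edgeR).

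Some values changed sign. Slc17a7 was at -0.01 with no sex covariate, -0.03 with tamoxifen-injected animals only and -0.02 without control 2 and iKO 3. With the replicate block, Cacng5 was at 0.02, Slc17a6 at 0.01 and Cga at -0.46, against 0.99 for Cga without the block. Pomc was at -0.19 without control 2 and iKO 3, against 0.74 with them, and Cacng5 in replicates 1 to 4 at -0.03 with no sex covariate. Without 1 library, Slc17a7 ran from -0.03 to 0.04, Cacng5 from -0.10 to 0.01, Cdh8 from -0.11 to 0.05 and Slc17a6 from -0.05 to 0.01. In replicates 1 to 4, Cacng5 ran from -0.01 to 0.05, Cdh8 from -0.22 to 0.05 and Gpr26 from -0.23 to 0.01. In replicates 5 and 6, Gpr26 ran from -0.36 to 0.01, Cacng5 from -0.21 to 0.13 and Cdh8 from -0.11 to 0.26. The cause was not tested. At 13207526 to 24178970 counts per library, Rxfp1 had 0 to 43 counts.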
